A study of Xenopus laevis with 72 samples.

Results

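Embryos of the frog Xenopus laevis in which the synthesis of retinoic acid (RA) had been inhibited for a short time were followed through recovery. The samples were chosen by their labels alone, as those of embryos exposed to 50 uM DEAB (diethylaminobenzaldehyde) and then washed, and they make up 24 of the 72 samples of the series. DEAB inhibits the retinaldehyde dehydrogenases, the enzymes that make RA. The exposure lasted 2 h, from stage 9.5 (late blastula) to stage 10.25 (early gastrula), and whole embryos were collected 0, 1.5, 3 and 4.5 h after the wash, with 6 samples at each time. The other 48 samples came from sister embryos exposed to 10 nM RA and from controls that received neither compound, 24 of each, over the same stages and times. All samples of a clutch, named G to L, came from a single fertilization of the eggs of a single female, and each sample pooled 5 to 10 embryos. Transcripts of 23 target genes and the reference gene gapdh were measured by high-throughput quantitative PCR. RA itself was not measured, so that the size and the duration of the knockdown are not known from these data.

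RA is made from retinol (vitamin A) by a pair of oxidations. Retinol dehydrogenases such as RDH10 and SDR16C5 turn retinol into retinaldehyde, and retinaldehyde dehydrogenases such as ALDH1A2 and ALDH1A3 turn retinaldehyde into RA. Reductases such as DHRS3 return retinaldehyde to retinol, CYP26 enzymes degrade RA, STRA6 carries retinol into the cell, and CRABP2 is a cellular RA-binding protein that delivers RA to its nuclear receptors. In the gastrula, RA signaling takes part in patterning the head-to-tail axis, and hox genes are among its best known targets. X. laevis has a duplicated genome, so that many genes are present as a pair of homeologs marked L and S.

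Expression is given as log2 relative expression, in which a difference of 1 stands for 1 PCR cycle relative to gapdh and 0 is the median of that gene over the 72 samples. Levels of different genes therefore cannot be set against each other. Threshold cycles (Ct) of the DEAB samples ran between 11.2 and 27.41, and how many molecules a Ct stands for is not known. SDs given for a gene are spreads over the clutches with a value. SEs and intervals come from the fits described below, which pool the error over groups and moderate it across genes. Of the DEAB values 5 were missing, all of hoxd3.L and 3 of them at 0 h. Since whole embryos were measured, fewer cells of a type and less RNA per cell cannot be told apart.

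A pair of DEAB samples stood apart. Over the genes without missing values, the sample of clutch K at 0 h lay nearer to the other clutches' mean at 1.5 h (root mean square distance 1.21) than to their mean at its own time (2.05). The sample of clutch H at 1.5 h lay nearer to the 3 h mean (1.04) than to the 1.5 h mean (1.45). Samples nearer to another time were also found among the RA samples, 1 of 24, and among the controls, 3 of 24. In clutch K the median change of 22 genes from 0 to 1.5 h was -0.58, against 0.89 to 2.78 in the other clutches. No label was changed.

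Nearly the whole panel rose. Between 0 and 4.5 h after the wash limma, with clutch as a block and adjustment over the 23 genes, called 21 genes higher (91.3%) and 1 lower (4.35%). The exception that fell was rdh13.L, and stra6.L did not pass the test. The median difference of all genes was 3.81 on the log2 scale. For 16 genes the 6 samples at 4.5 h lay above all the samples at 0 h, for rdh13.L they lay below, and for the other 6 genes the groups overlapped. The same 22 genes were called whichever clutch was left out. The spread between clutches was wider early, without a test: the median SD over 22 genes was 0.94 at 0 h and 0.94 at 1.5 h, against 0.59 at 3 h and 0.59 at 4.5 h. Of these 22 genes between 9 (clutch K) and 19 (clutch J) rose at each of the 3 steps, and the median rise of a clutch was between 2.46 (K) and 4.24 (J).

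Of the 4 lists the hox targets had the largest median rise. All 6 were higher at 4.5 h than at 0 h, by 3.81 to 7.40 and with a median difference of 5.15, against 3.81 over all genes. This direction held for all 6 with no reference gene, with 6 called, and against the mean of the panel, with 4 called. The gene hoxd4.L (gene ID 100380950), of the fourth hox paralog group, had its lowest, median and highest level at -7.22, -3.43 and -1.17 at 0 h, then at -2.13, -1.23 and 0.37 after 1.5 h, -0.49, 0.47 and 2.83 after 3 h, and 3.18, 3.31 and 5.29 after 4.5 h. Neighbouring times overlapped up to 3 h, and all 6 samples at 4.5 h lay above every earlier one. The rise was 7.40 (SE 0.78, limma adjusted p = 7.19e-08), or 169-fold if each cycle doubles the product, and it was seen in 6 of 6 clutches. In single clutches it ran from 4.34 to 12.5. The median Ct of this gene in the DEAB samples was high, at 21.36, so that its size at low levels is uncertain. The same holds for aldh1a3.L (median Ct 21.515), hoxa3.S (22.355) and hoxd3.L (23.92).

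The paralog group 1 gene hoxb1.S (gene ID 108702519), an early hindbrain gene in vertebrates, ran a similar course. Its lowest, median and highest levels were -5.68, -3.92 and -1.29 at 0 h, -3.91, -1.28 and -0.76 at 1.5 h, -0.68, 1.33 and 2.02 at 3 h, and 2.16, 2.92 and 4.26 at 4.5 h. The samples of clutches K and L were the lowest at 1.5 h, and again the 4.5 h samples lay above all others. Its rise was 6.90 (SE 0.69, limma adjusted p = 5.07e-08). The paralog group 4 gene hoxb4.S ran between -4.48 and -0.91 at 0 h and between 1.84 and 3.63 at 4.5 h, without overlap. It rose by 5.33 (SE 0.52, adjusted p = 4.36e-08), and hoxa3.S, of paralog group 3, by 3.81 (SE 0.76, adjusted p = 1.29e-04), which was higher in 5 of 6 clutches. In clutch K hoxa3.S stood at 0.11 at 4.5 h and 0.14 at 0 h, and without that clutch its rise was 4.58.

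Genes that remove RA or its precursor also rose, with 1 exception. Of the 7 genes of reduction and degradation 6 were higher at 4.5 h and 1 lower, against 21 and 1 of 23 in the panel. Their median difference was 3.29, against 3.81 over all genes. With no reference gene 4 of the 7 were called higher and 1 lower, against 15 and 2 of 23 in the panel. Against the panel mean 2 were called higher and 3 lower, with 8 and 9 of 23 in the panel. The largest difference of the panel was that of cyp26c1.L (gene ID 108696124), whose product breaks down RA. Its lowest, median and highest levels were -6.78, -4.45 and -2.27 at 0 h, -3.63, -3.10 and -0.04 at 1.5 h, -0.72, 0.27 and 1.67 at 3 h, and 1.65, 2.88 and 3.70 at 4.5 h. The groups at 0 and 4.5 h were 3.92 apart at their nearest samples. The rise was 7.47 (SE 0.67, limma adjusted p = 1.91e-08) and that of its homeolog cyp26c1.S was 5.44 (SE 0.60, adjusted p = 1.12e-07), each in 6 of 6 clutches. The range of cyp26c1.S was -4.26 to -0.13 at 0 h, with clutch K the highest and the others at or below -3.03, and 1.83 to 3.23 at 4.5 h.

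The reductase gene dhrs3.L (gene ID 444269) had the second smallest adjusted p of the 0 to 4.5 h comparison. It lay between -4.13 and -2.29 (median -3.26) at 0 h, between -2.14 and 0.31 (median -1.85) at 1.5 h, between -0.57 and 0.87 (median 0.00) at 3 h, and between -0.32 and 1.17 (median 0.98) at 4.5 h. The 0 h samples did not overlap with those of any later time. The rise of 4.02 (SE 0.27, limma adjusted p = 4.13e-10) was made up of an increase at each of the 3 steps in each of the 6 clutches, which was also found for cyp26a1.L and crabp2.L. The pair of cyp26a1 genes, for the main RA-degrading enzyme of the gastrula, rose by 3.29 for cyp26a1.L (SE 0.33, adjusted p = 5.07e-08) and by 1.99 for cyp26a1.S (SE 0.31, adjusted p = 7.03e-06). The range of cyp26a1.L was -3.82 to -1.65 at 0 h, -2.03 to -1.15 at 1.5 h, -0.82 to 0.38 at 3 h and -0.14 to 1.55 at 4.5 h, and that of cyp26a1.S was -2.93 to -0.50 at 0 h and -0.21 to 1.02 at 4.5 h. With no reference gene the difference of cyp26a1.S was 0.73 (adjusted p = 0.0924), and against the panel mean it was -1.52 and that of cyp26a1.L -0.22. The difference of dhrs3.L was 2.75 with no reference gene (limma adjusted p = 2.19e-05). Against the panel mean it was 0.51 and not called (adjusted p = 0.107).

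The retinaldehyde reductase genes rdh14.L and rdh13.L moved in opposite directions. The rise of rdh14.L was 1.04 (SE 0.17, limma adjusted p = 1.93e-05), with no reference gene -0.23 and against the panel mean -2.47, so that its direction rests on gapdh. The fall of rdh13.L (gene ID 444106) kept its direction: its difference was -2.29 (SE 0.29, adjusted p = 6.36e-07), -3.55 with no reference gene and -5.80 against the panel mean. Both alternatives lowered the differences of the panel, with median shifts of -1.27 and -3.51, so that neither could have turned a fall. The level of rdh13.L was between 0.96 and 3.01 (median 1.23) at 0 h, between -0.79 and 1.63 (median -0.15) at 1.5 h, between -1.49 and 1.12 (median -0.45) at 3 h, and between -2.15 and 0.76 (median -0.82) at 4.5 h. All 6 samples at 4.5 h were below all 6 at 0 h, and clutch G was the highest at every time.

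Of the 4 genes of binding and transport 3 were higher at 4.5 h, against 21 of 23 in the panel. Their median difference was 3.49, against 3.81 over all genes. With no reference gene 2 of the 4 were called higher and 1 lower, and against the panel mean 2 higher and 2 lower. The crabp2 homeologs gave 2 of the 5 largest differences of the panel. For crabp2.L (gene ID 378522) the lowest, median and highest levels were -5.51, -4.76 and -2.46 at 0 h, -1.74, -1.27 and -1.05 at 1.5 h, 0.11, 0.68 and 1.43 at 3 h, and 0.76, 1.83 and 2.80 at 4.5 h. The first 3 times were separated from each other without overlap, and only the samples at 3 and 4.5 h overlapped. The rise was 6.33 (SE 0.40, limma adjusted p = 2.74e-10). For crabp2.S (gene ID 108700362) it was 7.23 (SE 0.67, adjusted p = 2.38e-08), or 7.98 without clutch K, in which this gene stood at -0.08 at 0 h, against -6.27 to -3.31 in the others.

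No change was called for stra6.L, at 0.14 (95% interval -0.24 to 0.52, limma adjusted p = 0.436) with 3 clutches higher and 3 lower. Its 24 samples lay between -0.70 and 0.75. With no reference gene it was lower by a called amount (-1.12, adjusted p = 0.00734).

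The 5 genes of RA synthesis were all higher at 4.5 h, with a median difference of 1.91, against 3.81 over all genes, and whether the list differed from the panel was not tested. The aldh1a3.L gene, for a retinaldehyde dehydrogenase, rose by 3.83 (SE 0.47, limma adjusted p = 5.47e-07), and aldh1a2.L (gene ID 399389), for the main embryonic one, by 1.91 (SE 0.25, adjusted p = 9.11e-07). The levels of aldh1a2.L ran from -1.53 to -0.21 (median -1.27) at 0 h, from -1.16 to 0.21 (median -0.08) at 1.5 h, from 0.01 to 1.03 (median 0.79) at 3 h, and from 0.05 to 1.36 (median 1.04) at 4.5 h. The samples at 3 and 4.5 h lay above those at 0 h and largely covered the same range as each other. Within clutches aldh1a2.L was still higher at 4.5 h than at 3 h in 6 of 6, by 0.01 to 0.55 (mean 0.28). For aldh1a3.L the range was -4.66 to -1.24 at 0 h, -1.75 to 0.73 at 1.5 h, 0.01 to 2.90 at 3 h and 0.77 to 2.31 at 4.5 h, and the 0 h samples lay below all those at 3 and 4.5 h. Among the retinol dehydrogenase genes rdh10.L rose by 2.48 (SE 0.26, adjusted p = 7.19e-08), rdh10.S by 0.88 (SE 0.22, adjusted p = 0.00110) and sdr16c5.L by 0.66 (SE 0.17, adjusted p = 0.00152). These 3 were higher in 6 of 6 clutches, yet for rdh10.S (-1.06 to 1.11 at 4.5 h, against -1.68 to -0.01 at 0 h) and sdr16c5.L (-0.17 to 0.76, against -1.14 to 0.18) the samples overlapped. For rdh10.L they did not, with 0.23 to 1.57 at 4.5 h and -2.26 to -1.21 at 0 h. With no reference gene 2 of the 5 genes were called higher, aldh1a3.L and rdh10.L, and rdh10.S and sdr16c5.L turned to -0.39 and -0.61. Against the panel mean 0 were called higher and 4 lower.

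The gene hoxd3.L was kept apart from the lists because of its missing values. The deposited tables name the L member while the primer list of the methods names the S member, so that the homeolog behind these values is not settled. Its 3 values at 0 h were -3.65, -1.77 and -1.76, and its 6 values at 4.5 h ran from 0.21 to 2.83 (median 1.59). In the 3 clutches with both times the difference was 3.47 ± 0.68 (SD, n = 3), and the fitted one, which also draws on values of other clutches, was 3.80 (SE 0.86, limma adjusted p = 9.29e-04).

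**Figure D1:**
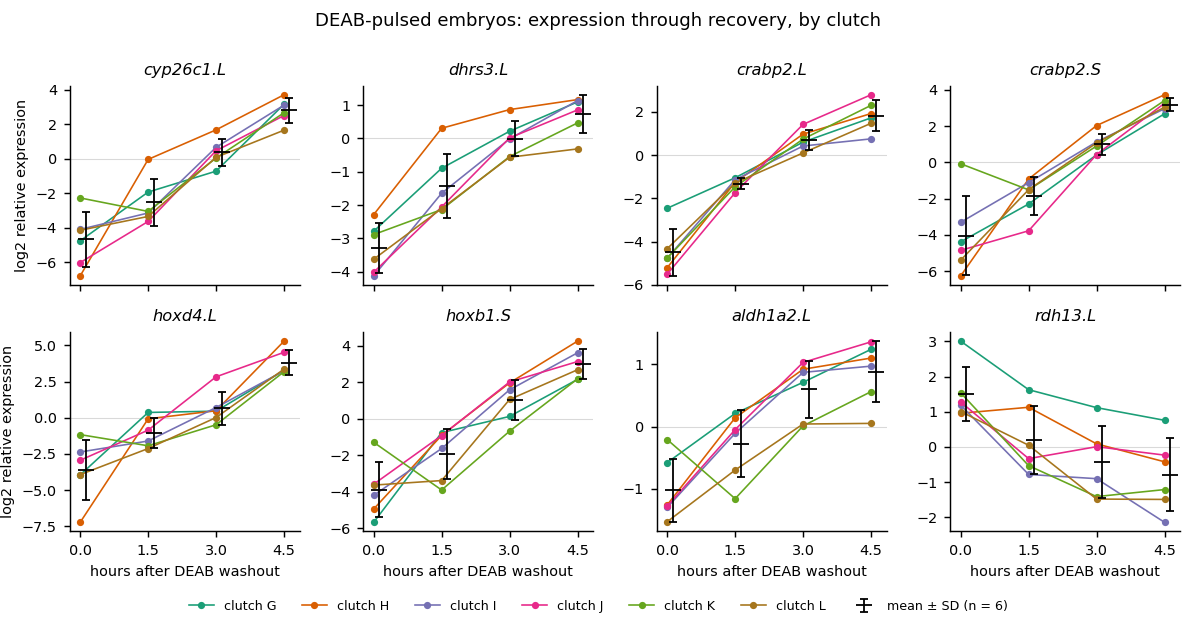
Log2 relative expression (y axis, scaled for each gene) of 8 genes in DEAB-pulsed embryos against hours after the wash (x axis). Each line is a clutch, and the black bars give the mean and SD of 6 samples. In 7 genes the lines end above where they began and in rdh13.L below, and over the first step the line of clutch K drops where the others climb for hoxb1.S, hoxd4.L, cyp26c1.L, crabp2.S and aldh1a2.L.

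The timing of the rise was then compared between the steps. From 0 to 1.5 h 13 genes were higher (56.5%) and 1, rdh13.L, was lower (4.35%), with a median difference of 1.12. From 1.5 to 3 h 14 were higher (60.9%) and 0 lower (0%), median 1.23. From 3 to 4.5 h 10 were higher (43.5%) and 0 lower (0%), median 0.74. The fit gives a gene 1 error estimate for all steps, while clutches spread less at 3 and 4.5 h. These counts therefore do not compare the steps at equal sensitivity. Measured against 0 h, 20 genes were higher at 3 h (87%) and 1 lower (4.35%), and only hoxd3.L and stra6.L were not called. For that span 13 were called higher and 2 lower with no reference gene, and 9 higher and 8 lower against the panel mean. Of the 20 genes called higher at 4.5 h other than hoxd3.L, a median of 37.9% of the rise had been reached by 1.5 h (range 21.0% to 88.7%) and 78.6% by 3 h (45.8% to 103%). Among single genes 92.6% of the rise of rdh10.L, 88.9% of that of aldh1a3.L, 85.1% of that of aldh1a2.L and 81.6% of that of dhrs3.L had been reached by 3 h, against 71.1% for hoxb1.S, 67.5% for cyp26c1.L, 57.6% for hoxd4.L and 45.8% for hoxa3.S. The shares of aldh1a3.L, hoxd4.L and hoxa3.S rest on high Cts and are less certain. The mean changed most over the first step in 6 of these 20 genes, over the second in 11, and over the third in 3, which were hoxd4.L, cyp26c1.S and hoxa3.S. This tally depended on the reference. Without one the step with the highest difference was the first in 6 of the 20 genes, the second in 4 and the third in 10, cyp26c1.L, crabp2.S and aldh1a2.L among them, and against the panel mean the numbers were 6, 10 and 4. In the 14 genes called higher with no reference gene the median share by 3 h was 63.8%, with rdh10.L at 84.1%, aldh1a3.L at 83.1%, dhrs3.L at 72.8%, hoxb1.S at 64.4%, cyp26c1.L at 60.7%, hoxd4.L at 48.6% and hoxa3.S at 18.4%, while the rise of aldh1a2.L (0.64) was not called. Over the panel the first time called against 0 h was 1.5 h for 14 genes, rdh13.L among them, 3 h for 7 and 4.5 h for 1, hoxd3.L. These first times rest on the 1 error estimate that a gene has for all steps.

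In the first step crabp2.L led, at 3.18 (SE 0.40, limma adjusted p = 9.36e-06), ahead of hoxd4.L at 2.55 (SE 0.78, adjusted p = 0.00952) and crabp2.S at 2.19 (SE 0.67, adjusted p = 0.00952). The SD of this step over clutches was 2.80 for hoxd4.L (range -0.77 to 7.14) and 2.34 for crabp2.S (range -1.44 to 5.35). For both genes the exact sign-flip test gave an unadjusted p of 0.09375. The limma SEs and p-values pool the error with that of later times, so they do not measure the spread of this step alone. The groups at 1.5 and 0 h were apart for 2 of the 23 genes, crabp2.L and dhrs3.L (difference 1.87, adjusted p = 3.35e-05). By list 4 of 5 synthesis genes, 3 of 7 genes of reduction and degradation, 4 of 6 hox targets and 2 of 4 genes of binding and transport were called higher, with median differences of 0.78, 1.20, 1.87 and 1.23. In the whole panel 13 of 23 were called higher, with a median of 1.12. Without clutch K all 6 hox targets were called higher, along with 4 genes that reduce or degrade, and 16 genes in all. Among the added genes were hoxb4.S (1.78, against 1.12 with all clutches), hoxa3.S (1.64, against 0.85) and cyp26c1.S (2.16, against 1.39). In clutch K the mean of the 6 hox targets was -2.73 at 1.5 h and -1.06 at 0 h, whereas in the other 5 clutches it was higher at 1.5 h than at 0 h. Without the sample of clutch K at 0 h alone 16 genes were likewise called higher and 1 lower, and without that sample and H at 1.5 h 15 and 1. Taken without a reference gene, 2 genes were called higher and 1 lower.

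In the second step all 14 called genes were higher at 3 h than at 1.5 h in 6 of 6 clutches. The leaders were hoxb1.S at 2.94 (SE 0.69, limma adjusted p = 0.00159), cyp26c1.L at 2.89 (SE 0.67, adjusted p = 0.00159) and crabp2.S at 2.85 (SE 0.67, adjusted p = 0.00159), followed by hoxb4.S at 2.60 (SE 0.52, adjusted p = 8.27e-04). Of reduction and degradation 6 of 7 genes were called, of synthesis 3 of 5 and of the hox targets 3 of 6, against 14 of 23 in the panel. The synthesis genes aldh1a3.L (1.85, adjusted p = 0.00293), rdh10.L (1.23, adjusted p = 0.00119) and aldh1a2.L (0.88, adjusted p = 0.00602) rose, though against the panel mean rdh10.L and aldh1a2.L stood at -0.10 and -0.46, and rdh10.S (0.13) and sdr16c5.L (0.21) did not pass. The hox target hoxd4.L, at 1.71 (adjusted p = 0.0571), was called without the sample of clutch K at 0 h (adjusted p = 0.0307), where 17 genes were called higher and 1 lower. Without that sample and H at 1.5 h 16 were called higher and 0 lower. Without a reference gene 5 were called higher and 1 lower.

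In the last step the calls lay outside the synthesis list. None of its 5 genes was called, with differences from -0.03 for rdh10.S to 0.42 for aldh1a3.L and a median of 0.18, while 4 of 6 hox targets were, with a list median of 1.80, against 0.74 over all genes. In the whole panel 10 of 23 were called. The called hox targets were hoxd4.L at 3.14 (SE 0.78, limma adjusted p = 0.0138), hoxa3.S at 2.06 (SE 0.76, adjusted p = 0.0356), hoxb1.S at 2.00 (SE 0.69, adjusted p = 0.0344) and hoxb4.S at 1.61 (SE 0.52, adjusted p = 0.0252), each in 6 of 6 clutches. Also called were hoxd3.L (2.91), cyp26c1.L (2.43), crabp2.S (2.19), cyp26c1.S (2.13), crabp2.L (1.12) and dhrs3.L (0.74, and -0.23 against the panel mean). The cyp26a1 genes did not pass, at 0.65 for cyp26a1.L (adjusted p = 0.124) and 0.40 for cyp26a1.S (adjusted p = 0.322). Within clutches cyp26a1.L was higher in 6 of 6 (SD 0.35) and cyp26a1.S in 5 of 6. Of the synthesis genes aldh1a2.L (0.28, SD 0.225) was higher in 6 of 6. It was 4 of 6 for aldh1a3.L, rdh10.L and sdr16c5.L and 3 of 6 for rdh10.S. A gene that was not called was thus not shown to be unchanged. Against the panel mean this step gave 5 genes called higher and 7 lower: of the hox targets hoxd4.L alone was called (2.17), and 4 of the 5 synthesis genes were called lower. Whether hox targets and synthesis genes differed in this step was not tested as lists. The count was not firm: it was 2 without clutch G, 0 without clutch I, where the smallest adjusted p was 0.0572, and 3 without clutch L.

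**Figure D2:**
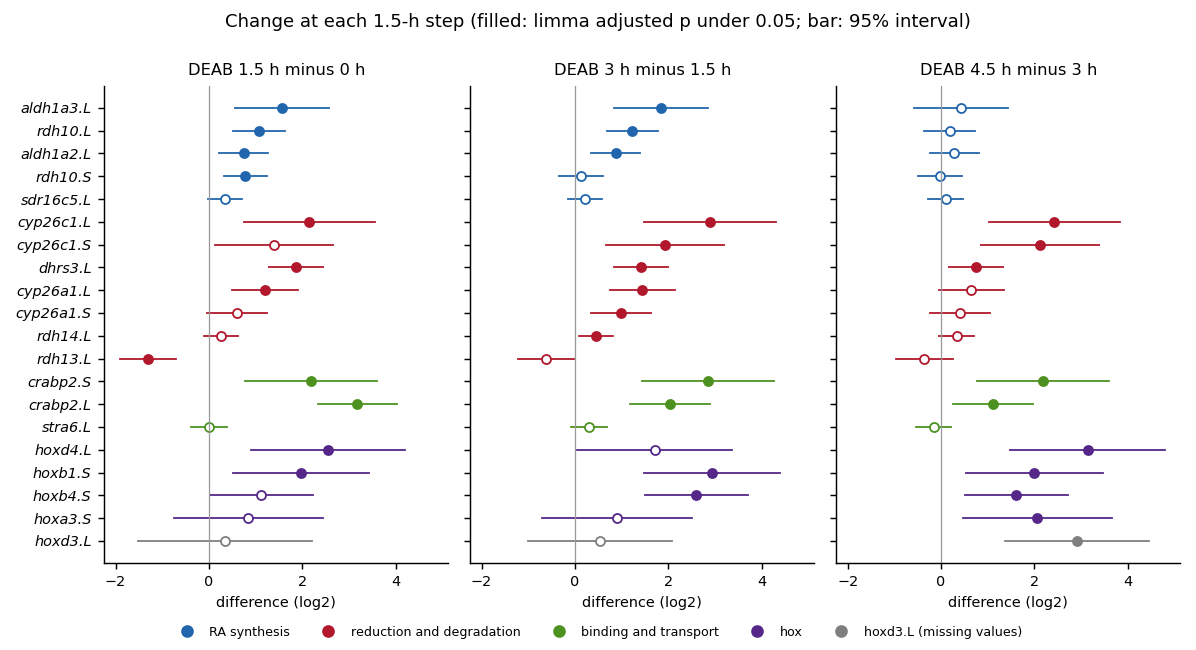
Difference in log2 relative expression (x axis) between neighbouring times in DEAB-pulsed embryos for 20 genes (rows, by list and by the size of the whole rise), with 95% intervals and n = 6 clutches except for hoxd3.L. Filled points passed limma at an adjusted p under 0.05. The 5 synthesis genes at the top stand near 0 in the panel of 4.5 h minus 3 h, where 4 hox rows are filled.

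Whether a gene slowed was tested as the last step minus the first. In limma 0 genes were higher (0%) and 1 was lower (4.35%), and 6 had an unadjusted p under 0.05. The call was crabp2.L, which rose by 3.18 in the first step and 1.12 in the last (difference -2.07, SE 0.57, adjusted p = 0.0484, negative in 6 of 6 clutches). The nearest others were dhrs3.L at -1.13 (adjusted p = 0.114) and rdh10.S at -0.81 (adjusted p = 0.149). For the synthesis list the 5 differences were all negative, with a median of -0.81, against -0.20 over all genes, and none was called. Of this list aldh1a2.L (0.07) and sdr16c5.L (0.28) stood above 0 with no reference gene, and the pace of the gapdh Ct itself was -0.54 (exact sign-flip test, p = 0.1875). The call of crabp2.L was lost with no reference gene (-1.52, adjusted p = 0.150), against the panel mean (-1.82, adjusted p = 0.0514), and without the samples K at 0 h and H at 1.5 h (-1.95, adjusted p = 0.0778). It also moved with single clutches: without clutch K 4 genes were called lower, among them crabp2.L, dhrs3.L (-1.40) and aldh1a2.L (-0.86), each with an adjusted p of 0.0478, and without H, I, J or L 0 were called.

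The L and S members of a pair were compared as L minus S in each sample, a difference from which gapdh cancels. Of the 5 pairs 3 changed between 0 and 4.5 h, each towards the L member. For cyp26c1 the difference moved by 2.03 (SE 0.45, limma adjusted p = 3.97e-04, 5 of 6 clutches), for rdh10 by 1.60 (SE 0.32, adjusted p = 2.90e-04, 6 of 6) and for cyp26a1 by 1.30 (SE 0.27, adjusted p = 2.90e-04, 6 of 6). None of these shifts was called in limma against that of controls. DEAB minus control was 1.335 for cyp26c1 (adjusted p = 0.183), -0.21 for rdh10 (adjusted p = 0.685) and -0.53 for cyp26a1 (adjusted p = 0.556). The rdh10 pair gave L minus S values of -2.02 to 0.10 at 0 h, -1.27 to 0.02 at 1.5 h, -0.57 to 0.92 at 3 h and -0.69 to 1.71 at 4.5 h. Of the 3 steps of that pair the second was called, at 1.10 (SE 0.32, adjusted p = 0.0130), where rdh10.L rose and rdh10.S did not pass. For crabp2 the change was -0.90 (95% interval -2.35 to 0.55, adjusted p = 0.208), with -4.68 at 0 h in clutch K, and 4 pairs were called without clutch K, or without I. The preamplifications behind each Ct differed in their primers (for L homeologs, for S homeologs or for the whole panel), and what this did to L minus S was not tested.

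**Figure D3:**
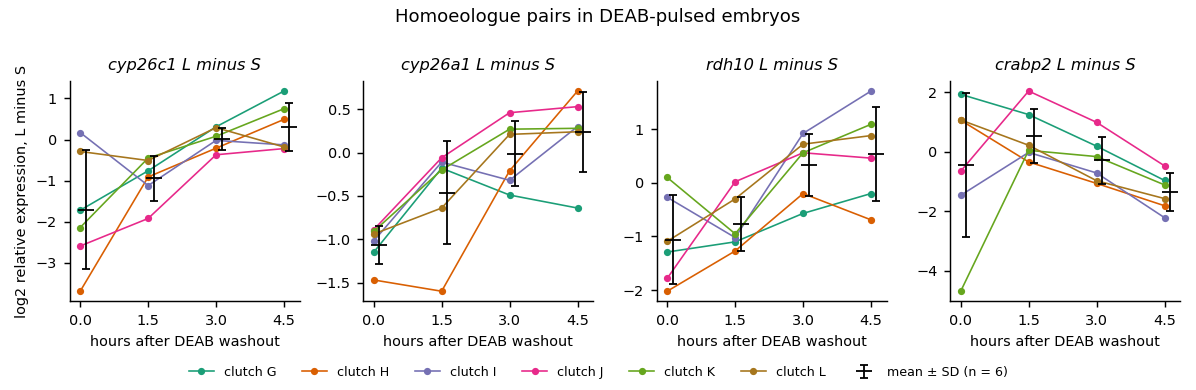
L minus S difference in log2 relative expression (y axis, scaled for each pair) of 4 homeolog pairs in DEAB-pulsed embryos against hours after the wash (x axis), with a line per clutch and the mean ± SD of 6 samples in black. The lines of cyp26a1 and rdh10 end above their start in 6 of 6 clutches, and crabp2 shows the value of -4.68 of clutch K at 0 h.

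Since all values but those of the pairs are relative to gapdh, its own course was examined. The gapdh Ct averaged 12.36 ± 0.584 cycles at the wash, 12.88 ± 0.498 after 1.5 h, 13.63 ± 0.477 after 3 h and 13.62 ± 0.996 after 4.5 h (SD, n = 6 each). A higher Ct means less product. The Ct was higher at 4.5 h than at 0 h by 1.27 ± 1.38 in 5 of 6 clutches (SD, n = 6, exact two-sided sign-flip test, p = 0.09375), and higher at 3 h than at 1.5 h by 0.75 ± 0.25 in 6 of 6 (exact p = 0.03125, the smallest that 6 clutches allow). Between 3 and 4.5 h it differed by -0.01 ± 0.57 (exact p = 1). With no reference gene the median difference of all genes from 0 to 4.5 h moved by -1.27 and 15 genes were called higher and 2 lower, and with the panel mean, which is made of the genes that rose, it moved by -3.51 and 8 were called higher and 9 lower. Between 0 and 4.5 h the panel mean turned the sign of aldh1a2.L (-1.61), rdh10.L (-1.03), rdh10.S, sdr16c5.L, rdh14.L, stra6.L and both cyp26a1 genes, and having no reference that of rdh10.S, sdr16c5.L, rdh14.L and stra6.L. What part of the gapdh shift came from the amount of RNA and what part from the gene was not tested. The last step, in which the gapdh mean barely moved, gave 9 genes called higher and 0 lower with no reference gene.

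**Figure D4:**
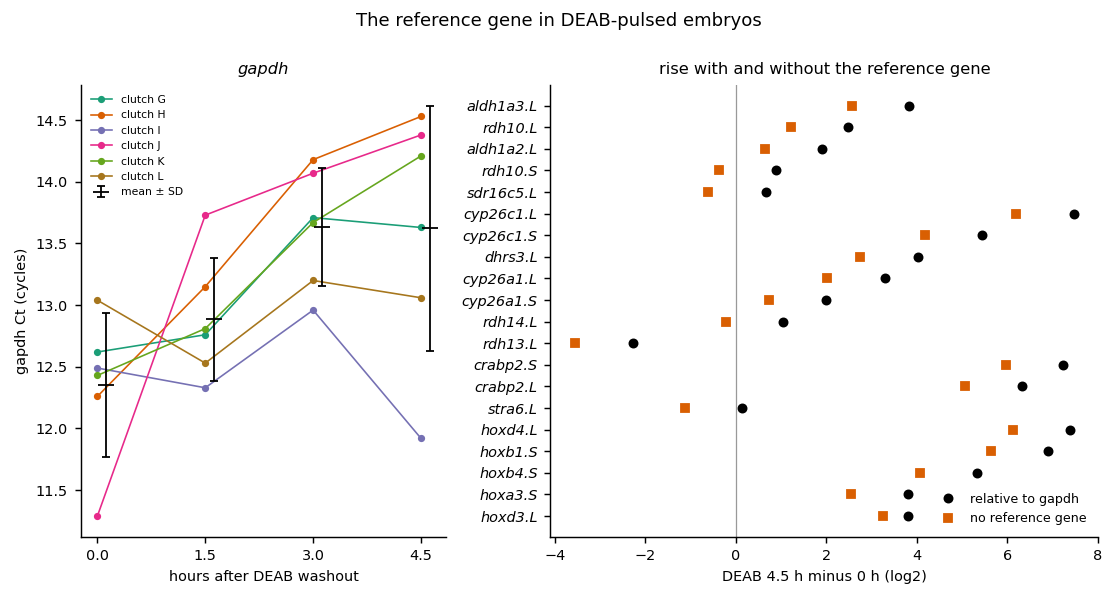
Left, gapdh Ct in cycles (y axis) of each clutch against hours after the wash (x axis), with the mean ± SD of 6 samples. Right, the difference of 4.5 h minus 0 h on the log2 scale (x axis) for 20 genes, relative to gapdh (circles) and with no reference gene (squares). The squares lie 1.27 to the left of the circles in the genes without missing values, and those of rdh14.L, rdh10.S, sdr16c5.L and stra6.L fall below 0.

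The rise after DEAB was next set against that of control embryos of the same clutches, to ask whether the course after the wash differed. A difference from controls that was already present at 0 h and stayed cancels in such a comparison. Levels at single times were not tested against controls. In limma 0 of 23 genes differed in their rise from 0 to 4.5 h (0% higher and 0% lower), 0 at each of the 3 steps, and no gene (0) had an unadjusted p under 0.05 in limma. Within clutches 4 step differences had 1 sign in 6 of 6 (exact sign-flip test, unadjusted p = 0.03125 each): cyp26a1.L at -0.42 and rdh10.S at 0.46 from 0 to 1.5 h, crabp2.S at -0.73 from 1.5 to 3 h and cyp26a1.S at 0.80 from 3 to 4.5 h. None of these (0) passed after adjustment, but that test could not have called them. It needs 14 of 22 genes, or 15 of 23, at its smallest p, so this says nothing of their differences. Over the 3 steps together, in limma, 0 of the 22 genes without missing values passed (smallest adjusted p 0.968). The gene hoxd4.L rose by 7.40 ± 2.78 after DEAB and 6.04 ± 1.48 in controls (SD, n = 6 each), a difference of 1.36 with a 95% interval of -0.35 to 3.07. For cyp26c1.L the rises were 7.47 ± 1.98 after DEAB and 6.49 ± 1.11 in controls (difference 0.98, interval -0.37 to 2.32), and for dhrs3.L 4.02 ± 0.84 and 4.18 ± 0.62 (difference -0.16, interval -0.85 to 0.53). The median SE of such a difference was 0.60, so that differences in rise anywhere within these intervals were not excluded with 6 clutches.

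Against RA-pulsed embryos 3 genes rose by more after DEAB from 0 to 4.5 h (13%) and 0 by less (0%). For dhrs3.L the rise was 4.02 ± 0.84 after DEAB and 1.85 ± 0.68 after RA (SD, n = 6 each), a difference of 2.17 (95% interval 1.48 to 2.86, limma adjusted p = 1.10e-06) that was positive in 6 of 6 clutches. At 0 h this gene lay between -4.13 and -2.29 in DEAB samples and between -1.19 and 0.05 in RA samples, without overlap, and at 4.5 h between -0.32 and 1.17 in DEAB samples and between -0.44 and 1.96 in RA samples, with overlap. For cyp26a1.S the rises were 1.99 ± 1.01 after DEAB and 0.02 ± 1.61 after RA (difference 1.97, interval 0.87 to 3.07, adjusted p = 0.00541), in 5 of 6 clutches, and this call ended without clutch K (1.75, adjusted p = 0.0649) or L (1.54, adjusted p = 0.110). For cyp26a1.L the difference of 1.15 did not pass (interval -0.04 to 2.35, adjusted p = 0.226). It was 2.29 without clutch G (adjusted p = 6.63e-05), in which the RA sample at 0 h stood at -4.73, against -0.55 to 0.10 in the other clutches.

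The third call, hoxd3.L at 7.63 (adjusted p = 3.93e-06), and the 1 gene called from 0 to 1.5 h (4.35% higher, 0% lower), hoxd3.L at 8.84, rest on 3 DEAB values and 3 RA values at 0 h, which ran from -3.65 to -1.76 after DEAB and from 2.62 to 9.45 after RA and had 1 clutch in common. From 1.5 to 3 h 2 genes rose by more after DEAB than after RA (8.7%) and 0 by less (0%). They were cyp26a1.L (1.91, interval 0.72 to 3.11) and dhrs3.L (1.15, interval 0.46 to 1.85), both with an adjusted p of 0.0258 and positive in 6 of 6 clutches, and leaving out 1 clutch gave between 0 and 2 calls and either other reference gave 0. Without the DEAB samples K at 0 h and H at 1.5 h cyp26a1.L stood at 1.81 (adjusted p = 0.0582). From 3 to 4.5 h 0 genes were called (0% higher and 0% lower). The 6 hox targets of the list gave 0 calls from 0 to 4.5 h or at any step, with hoxd4.L at 1.41 (interval -0.31 to 3.12) and hoxb1.S at 0.50 (interval -0.97 to 1.97) from 0 to 4.5 h. The comparisons with RA and with controls use the same DEAB samples.

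**Figure D5:**
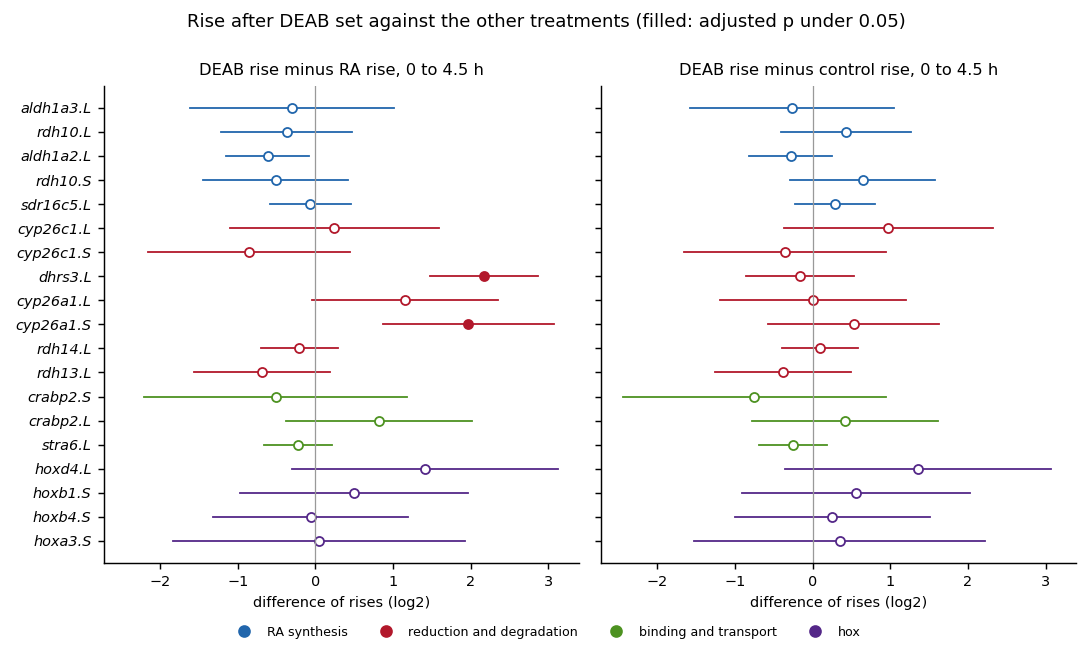
Rise from 0 to 4.5 h after DEAB minus the rise after RA (left) and minus the rise in controls (right), on the log2 scale (x axis), for 19 genes (rows), with 95% intervals from limma over 6 clutches. Filled points passed at an adjusted p under 0.05. On the left dhrs3.L and cyp26a1.S are filled, and on the right every interval includes 0.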

How the data were processed

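RNA of pooled embryos was turned into cDNA, preamplified and measured by dye-based quantitative PCR on microfluidic arrays, and the authors took as the Ct of a gene the median over preamplifications with primers for L homeologs, for S homeologs and for all genes. The deposited tables hold threshold cycles (Ct) and log2 relative expression. All 1709 deposited log2 values equalled gapdh Ct minus gene Ct, centred on the gene's median over 72 samples, within 0.001. Missing values (19, all of hoxd3.L) were neither imputed nor filled. The Ct of gapdh itself moved with time, and the choice of reference decides the sign of some genes. From 0 to 4.5 h those that turned with no reference gene had changed little relative to gapdh, at most 1.04 (rdh14.L). Against the panel mean genes with larger rises turned too, such as cyp26a1.L, from 3.29 to -0.22. No genome build is given in the sources used here, and all 24 gene IDs matched a RefSeq table used for names.

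Samples were grouped by their labels. Times were compared in the 24 DEAB samples with limma 3.58.1 (R 4.3.3), lmFit and eBayes, with clutch as a fixed block (15 residual degrees of freedom) and Benjamini-Hochberg adjustment over 23 genes at 0.05. Rises were compared between treatments as interaction contrasts of 72 samples. Single values were tested with an exact two-sided sign-flip test over 6 clutches (64 assignments), in which 0.03125 is the smallest p. Folds assume a doubling at each cycle. The fit was tested on simulated data for 1.5 h minus 0 h, with 10 of 22 genes changed. It called 14% of changes of 0.5, 52.8% of changes of 1 and 86% of changes of 2. Of the unchanged genes at most 2.08% were called. A simulated gene had the same error at all times, so this could not test the effect of the wider early spread. Samples of 1 clutch at different times correlated by 0.32 on average after the time means were removed (36 pairs, lowest -0.443), against -0.062 between clutches. Removing the time means ties the value between clutches to that within them, so it is not a separate comparison. Pooled embryos of 1 clutch and time gave 1 sample. With clutch as a block, differences in level between clutches are removed. The limma p-values, SEs and intervals rest on how changes varied from clutch to clutch, pooled over all groups and moderated across genes. Alternatives were other blocks, references, tests and thresholds, clutches left out, and a limit on Ct. The members and lists were chosen with earlier results of these data known. Full statistics were given to the up to 8 largest called differences in which 5 or 6 of the clutches had the same sign, and beyond that rule to other genes where a list is described. Some genes are part of every fit and count but are not reported singly here.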

Additional observations from a re-analysis of the deposited data

Results flagged for a closer look

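Within the DEAB samples 78 sets of 6 clutch differences were searched for a clutch that lay far from the other 5, and 6 were found, where chance alone marks about 1 in 20. Clutch K gave 3 of them. From 0 to 1.5 h aldh1a2.L changed by -0.95 in clutch K, against 0.79 to 1.40 in the others. From 0 to 4.5 h hoxa3.S changed by -0.03 in clutch K, against 3.60 to 5.55. In both cases the sample of clutch K at 0 h was the highest of its time (-0.21 for aldh1a2.L, 0.14 for hoxa3.S) and its later sample the lowest of its own (-1.16 at 1.5 h, 0.11 at 4.5 h). From 3 to 4.5 h sdr16c5.L changed by 0.68 in clutch K, against -0.17 to 0.08. Clutch J gave a pair of high values, a change of cyp26a1.S by 3.94 from 0 to 4.5 h, against 1.0 to 1.87, and of crabp2.S by 4.21 from 1.5 to 3 h, against 2.25 to 2.95. In clutch G crabp2.L changed by 1.41 from 0 to 1.5 h, against 3.04 to 3.95.

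The course after DEAB differed by limma from that after RA for 4 genes. The rise from 0 to 4.5 h was larger after DEAB by 2.17 for dhrs3.L (adjusted p = 1.10e-06), by 1.97 for cyp26a1.S (adjusted p = 0.00541) and by 7.63 for hoxd3.L (adjusted p = 3.93e-06). From 1.5 to 3 h it was larger by 1.91 for cyp26a1.L and by 1.15 for dhrs3.L (adjusted p = 0.0258 each). From 0 to 1.5 h it was larger by 8.84 for hoxd3.L (adjusted p = 3.60e-06), a gene with 3 measured samples of each treatment at 0 h.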

How the results depend on the processing

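The call of 21 genes higher and 1 lower from 0 to 4.5 h came out with all 72 samples in one fit, with robust eBayes, at a threshold of 0.01, without any 1 clutch, without the sample of clutch K at 0 h and, an alternative chosen after the data were seen, without that sample and H at 1.5 h. The clutch letters pair the samples because those of a letter came from 1 female. With no replicate block 22 genes were called, and with a random replicate block 22. For 1.5 h minus 0 h the block gave 14 calls, no replicate block 13 and a random one 16. For 1.5 to 3 h against RA no replicate block gave 0 calls in place of 2. Leaving out 1 clutch gave between 0 and 8 calls in place of 10 for 4.5 h minus 3 h, between 0 and 4 in place of 1 for the last step minus the first, and between 0 and 2 for the rise against RA from 1.5 to 3 h. The exact sign-flip test per gene, whose smallest p is 0.03125, called 0 genes for 1.5 h minus 0 h, 4.5 h minus 3 h, the last step minus the first, and the rise against RA from 0 to 4.5 h, 0 to 1.5 h and 1.5 to 3 h. That test calls no gene unless 15 of 23 genes, or 14 of 22, are at its smallest p, so these counts say nothing of stability. The threshold of 0.01 gave 0 calls for 4.5 h minus 3 h, the last step minus the first and the rise against RA from 1.5 to 3 h. For the last step minus the first all 72 samples in one fit gave 2 calls, the panel mean 0, no reference gene 0, robust eBayes 0, the data without the sample of clutch K at 0 h 4, and those without that sample and H at 1.5 h 0. For 1.5 h minus 0 h the panel mean gave 7 calls (2 higher, 5 lower) and no reference gene 3, and for 3 h minus 1.5 h no reference gene gave 6. Against RA from 1.5 to 3 h the panel mean gave 0 calls, no reference gene 0, the 48 samples of both treatments alone 0, and the data without K at 0 h and H at 1.5 h 1. Against RA from 0 to 1.5 h leaving out genes with a median Ct above 20 removed hoxd3.L and gave 0. Against controls each alternative gave 0 calls. Without K at 0 h, and also without that sample and H at 1.5 h, 11 genes were called for 4.5 h minus 3 h, 22 for 3 h minus 0 h and 4 for the rise against RA from 0 to 4.5 h. The gapdh difference of 4.5 h minus 0 h stayed between 0.902 and 1.63 cycles when 1 clutch was left out.

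Turned signs are listed for the named genes that were called under gapdh or under the other reference. With the panel mean as reference the sign turned for the difference of 1.5 h minus 0 h in aldh1a2.L -0.47, rdh14.L -0.96, cyp26a1.L -0.015, rdh10.L -0.15, rdh10.S -0.43, sdr16c5.L -0.86 and stra6.L -1.21. The sign turned for the difference of 3 h minus 1.5 h in aldh1a2.L -0.46, rdh14.L -0.88, cyp26a1.S -0.34, rdh10.L -0.10, rdh10.S -1.20, sdr16c5.L -1.12 and stra6.L -1.03. The sign also turned for the difference of 4.5 h minus 3 h in aldh1a2.L -0.68, dhrs3.L -0.23, rdh10.L -0.78 and sdr16c5.L -0.87. For 3 h minus 0 h the turned differences were aldh1a2.L -0.92, rdh14.L -1.84, cyp26a1.S -0.95, hoxa3.S -0.80, rdh10.L -0.25, rdh10.S -1.64, sdr16c5.L -1.99 and stra6.L -2.25. For 4.5 h minus 0 h the turned differences were aldh1a2.L -1.61, rdh14.L -2.47, cyp26a1.L -0.22, cyp26a1.S -1.52, rdh10.L -1.03, rdh10.S -2.63, sdr16c5.L -2.86 and stra6.L -3.37. With no reference gene the sign turned for the difference of 3 h minus 1.5 h in rdh14.L -0.30. The sign turned for the difference of 3 h minus 0 h in rdh14.L -0.57, rdh10.S -0.37, sdr16c5.L -0.72 and stra6.L -0.98. The sign also turned for the difference of 4.5 h minus 0 h in rdh14.L -0.23, rdh10.S -0.39, sdr16c5.L -0.61 and stra6.L -1.12. Over all 23 genes a further 4, 3, 5, 1 and 0 signs turned against the panel mean for 1.5 h minus 0 h, 3 h minus 1.5 h, 4.5 h minus 3 h, 3 h minus 0 h and 4.5 h minus 0 h in genes called under neither reference (hoxa3.S at -0.37 and hoxb4.S at -0.10 for the first of them). With no reference gene there were 4, 5, 1, 0 and 0 of these. The panel mean averages genes that mostly rose, so that values relative to it are lower by construction. The cause of the other changes was not tested. The number of clutches limits the precision, and the molecules behind a Ct are unknown.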
